A study of Mus musculus with 10 samples.

Results

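The effect of levetiracetam (LEV) at 2 days after status epilepticus (SE) was examined in the hippocampus by comparing 2 SE + LEV 2 days mice with 2 SE 2 days mice, which are 4 of the 10 mice of the series. The members were the mice that the sample labels place in these 2 groups, and all 15851 genes that passed a filter on low values were compared, out of 15900 listed. All 4 were male ICR mice, an outbred strain, of 9 to 10 weeks. Each had received methyl scopolamine at 1 mg/kg, then pilocarpine (PILO) at 290 mg/kg to induce SE, and diazepam at 10 mg/kg to end it. SE + LEV 2 days mice had in addition received oral LEV at 360 mg/kg 5 times before sampling. A pair of pre-SE mice, labelled untreated, is given beside them for orientation. The paper calls pre-SE mice naive or control animals, and its methods state that controls got saline in place of PILO. Mice sampled 6 h after SE without LEV (SE 6 h) or with LEV given 1 time (SE + LEV 6 h) were used to compare the times. The tissue was whole hippocampus, so that fewer cells of a type and less RNA per cell cannot be told apart, and no group with LEV but without SE was analysed here.

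LEV is an antiseizure drug that binds the synaptic vesicle protein SV2A, a regulator of neurotransmitter release. SE drives prolonged firing of hippocampal neurons, which switches on immediate early genes (IEGs). In the following days microglia and astrocytes become reactive, cytokines and chemokines are made, and myelinating cells and neurons can be damaged. Cap analysis of gene expression (CAGE) counts the capped 5′ ends of transcripts, and a CPM value scales the tags of a gene to the total tags of that mouse.

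The data of both SE + LEV mice can be summarised by 2 patterns. Of 22 IEGs, 18 were lower in both mice than in either SE 2 days mouse, and 16 were lower at an unadjusted p under 0.05. Genes of inflammation, activated microglia, reactive astrocytes and cell division were mostly lower in replicate 2. Their medians in replicate 1 were nearer to the SE 2 days mean. Replicate 1 was still below both SE mice in 13 of 28 cytokines and chemokines (28.4% of all genes). In 11 of 17 cell division genes it was above both (28.9% of all genes). No gene passed the adjusted threshold in limma, the test fitted to all genes. It called 0 genes lower and 0 higher at an adjusted p of at most 0.05, while 220 genes (1.39% of those tested) were lower and 208 (1.31%) higher when p was left unadjusted and its threshold kept at 0.05. *Acot5* had the smallest adjusted p (0.131 by limma), and that of every other gene tested was 1.0. On recovered tag counts, edgeR's quasi-likelihood test also called 0 genes, DESeq2 called 4 lower (0.0252%) and 0 higher, and edgeR's exact test called 10 lower (0.0631%) and 2 higher (0.0126%). Log2 differences below are those of log2(CPM + 0.1), SE + LEV 2 days minus SE 2 days, which understate the differences of low genes.

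The libraries of the 4 mice held 20937023 to 43743195 tags on listed genes, and 3 tags were worth 0.0686 to 0.143 CPM. Neuronal markers (*Grin1*, *Snap25* and *Syt1*) summed to 3316 and 2701 CPM in SE 2 days replicates 1 and 2 and to 2752 and 2722 CPM in SE + LEV 2 days replicates 1 and 2. Astrocyte markers (*Slc1a2*, *Aqp4*, *Gja1* and *Gfap*) summed to 3244 and 4691 CPM against 4060 and 3604 CPM. Most of each sum was *Gfap* (2282 and 3642 CPM against 3071 and 2312 CPM), which was at 245.6 and 230.2 CPM in pre-SE mice. The astrocyte sum thus follows *Gfap* more than the other markers. Microglial markers summed to 642.1 and 801.4 CPM against 888.4 and 673.0 CPM. Markers of the choroid plexus (*Ttr* and *Kl*) stood apart in SE + LEV 2 days replicate 1, at 1492 CPM, against 25.3 CPM in replicate 2 and 65.0 and 21.6 CPM in the SE 2 days mice, and they were also high in 1 of the pre-SE mice (1690 CPM). *Cd3e* and *Cd3g* of T cells were not among the genes tested, and *Hbb-b1* of red cells was at 5.85 CPM or lower in the 4 mice.

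IEGs encode transcription factors and effectors, many of which neurons switch on within minutes of firing. Not all members of the list are of this kind. The paper reports by PCR that *Fosl1* rose later than *Fos*. In its sorted cells at 2 days *Fosl1* was found mainly in astrocytes, and *Fos* across most cell types. Of the 22 genes of the list, 21 had a lower estimate with LEV, against 44.5% of all genes tested. Both SE + LEV mice were below both SE mice in 18 (81.8%), against 12.2% of all genes, and above both in 0. The median log2 difference was −1.85, against 0.04 over all genes tested. Replicate 1 alone was below both SE mice in 19 and replicate 2 in 20, where the shares over all genes were 28.4% and 32.2%. DESeq2 called 3 of the list (*Ptgs2*, *Npas4* and *Arc*) and edgeR's exact test 5 (these and *Fos* and *Egr2*).

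**Figure D1:**
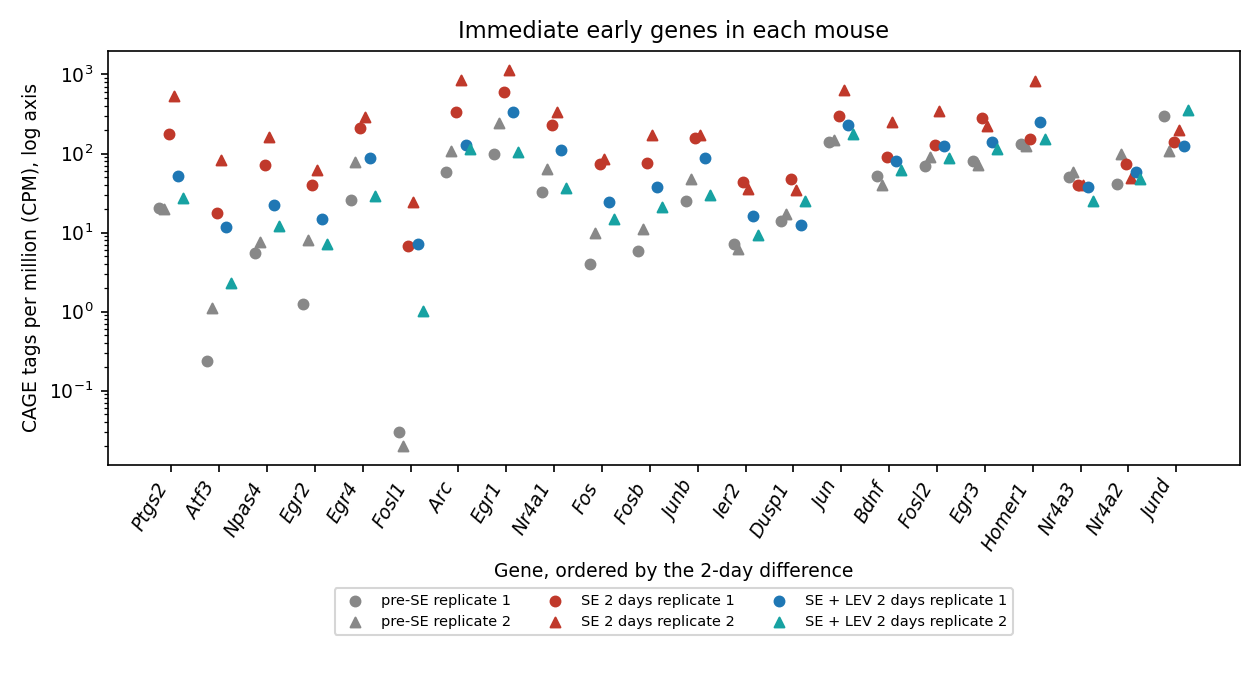
CPM on a log axis of the 22 immediate early genes in each of 6 mice (grey, pre-SE; red, SE 2 days; blue and teal, SE + LEV 2 days replicates 1 and 2), ordered by the log2 difference with LEV. In 18 of the 22 genes both SE + LEV mice lie below both SE mice; *Fosl1*, *Homer1*, *Nr4a2* and *Jund* are the exceptions.

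*Ptgs2*, which encodes the inducible cyclooxygenase COX-2 and lies on chromosome 1 of mm9 (151947254 to 151955140, + strand), was at 175.8 and 530.8 CPM in SE 2 days mice and at 52.5 and 27.7 CPM in SE + LEV 2 days mice. Its level in pre-SE mice was 20.4 and 19.9 CPM. The SE + LEV mice were thus well below the SE 2 days mice and still above the pre-SE mice. The log2 difference was −3.00 (SE 0.61), with an adjusted p of 1.0 in limma, 0.000919 in DESeq2 and 0.00419 in edgeR's exact test.

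*Npas4*, a transcription factor of neurons that answers calcium entry (chromosome 19 of mm9, 4984355 to 4989971, − strand), was at 72.3 and 160.1 CPM without LEV and at 22.3 and 11.95 CPM with it. The groups did not overlap, and the log2 difference was −2.71 (SE 0.63; adjusted p of 1.0 in limma, 0.0127 in DESeq2). *Arc*, a postsynaptic protein that regulates AMPA receptor traffic (chromosome 15, 74499513 to 74503000, − strand), was at 339.3 and 861.0 CPM without LEV and at 126.8 and 115.3 CPM with it. The treated mice were close to each other and to the higher pre-SE mouse (107.6 CPM), and the log2 difference was −2.16 (SE 0.52; adjusted p of 1.0 in limma, 0.0153 in DESeq2).

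*Fos*, a subunit of the AP-1 transcription factor (chromosome 12, 86814840 to 86818223, + strand), was at 72.9 and 85.6 CPM without LEV and at 24.1 and 14.7 CPM with it, a log2 difference of −2.06 (SE 0.56). Here the SE mice were alike and both treated mice were lower. Its relative *Fosl1* (Fra-1), another AP-1 subunit, was at 6.78 and 24.2 CPM in SE mice and at 7.16 and 1.03 CPM in SE + LEV mice. SE + LEV replicate 1 was inside the range of the SE mice and replicate 2 below it, so the groups overlapped, and the log2 difference was −2.17 (SE 0.79; limma adjusted p = 1.0). *Fosl1* overlaps *Ccdc85b* on the other strand.

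Among the other AP-1 genes, *Fosb* (76.5 and 170.5 CPM against 37.8 and 21.1 CPM) had a log2 difference of −2.01 (SE 0.69). *Junb* (156.0 and 173.8 CPM against 86.6 and 30.3 CPM) and *Jun* (299.0 and 631.9 CPM against 228.1 and 177.0 CPM) differed by −1.68 and −1.11 on the log2 scale. In these 3 genes the SE + LEV mice lay below the SE 2 days mice. *Jund* was the only member of the list with a higher estimate: it was at 140.3 and 201.2 CPM without LEV and at 125.6 and 356.7 CPM with it, and the treated mice lay on either side of the SE mice. *Atf3*, a stress-induced repressor of the ATF family, was at 17.6 and 82.0 CPM against 11.8 and 2.30 CPM, a log2 difference of −2.84 (SE 0.91).

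The zinc finger genes of the Egr family gave the following values. *Egr1* was at 608.4 and 1154 CPM in SE mice and at 337.4 and 105.2 CPM in SE + LEV mice (log2 difference −2.15, SE 0.80). *Egr2* was at 40.4 and 62.7 CPM against 14.7 and 7.11 CPM (−2.29, SE 0.78), and *Egr4* at 209.9 and 290.2 CPM against 88.8 and 29.1 CPM (−2.28, SE 0.81). In each of these, replicate 2 was the lower of the treated mice and was within or near the pre-SE range. Of the nuclear receptors, *Nr4a1* was at 226.6 and 330.9 CPM against 111.1 and 36.6 CPM (−2.10, SE 0.62), whereas *Nr4a2* (74.0 and 49.0 CPM against 57.6 and 47.0 CPM) and *Nr4a3* (39.5 and 40.4 CPM against 38.0 and 25.2 CPM) differed by −0.21 and −0.37 on the log2 scale. *Ier2*, a nuclear regulator, was at 43.9 and 35.6 CPM against 16.4 and 9.41 CPM (−1.66, SE 0.35), and its groups did not overlap.

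*Bdnf*, the neurotrophin that strengthens synapses, was at 90.0 and 252.7 CPM in SE mice and at 79.5 and 62.2 CPM in SE + LEV mice (−1.10, SE 0.45). *Dusp1*, a phosphatase that switches MAP kinases off, was at 47.0 and 35.0 CPM against 12.5 and 25.0 CPM (−1.19, SE 0.40), and here replicate 1 was the lower treated mouse. *Homer1*, a scaffold of metabotropic glutamate receptors, was at 151.1 and 835.9 CPM in SE mice and at 252.5 and 154.6 CPM in SE + LEV mice, so that its groups overlapped. The high *Homer1* value of SE 2 days replicate 2 was part of a wider difference between the SE mice: over the 22 genes the median of replicate 1 minus replicate 2 was −0.78 on the log2 scale.

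Which mice were used changed the size of the median log2 difference of the IEGs, but not its sign. It was −1.46 without SE 2 days replicate 2 and −1.28 without SE + LEV 2 days replicate 2. Leaving out SE 2 days replicate 1 gave −2.13 and leaving out SE + LEV 2 days replicate 1 gave −2.32.

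*Btg2*, an antiproliferative gene that is also induced by activity but was not on the list, was called lower by DESeq2 (adjusted p = 0.00174; limma adjusted p = 1.0). It was at 129.3 and 41.1 CPM in SE mice and at 17.3 and 19.9 CPM in SE + LEV mice, a log2 difference of −1.97 (SE 0.43). The treated mice were lower and close to each other. *Btg2* lies on chromosome 1 of mm9 (135971747 to 135975697, − strand).

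Activity reaches many of these genes through CREB, which binds the cyclic AMP response element (CRE), through serum response factor at CArG boxes, and through AP-1. The promoters of 4 activity-induced genes that were called lower by DESeq2 or edgeR's exact test, and of the cytokine *Il6*, are shown so that the letters behind these elements can be seen. They are RefSeq sequences of GRCm38.p6, a later build than the mm9 of the tag data, and run from 250 bases before to 50 bases after the start of each gene on its own strand. Capitals mark matches, on either strand, to the full CRE (TGACGTCA), the CRE half-site (TGACG, or CGTCA read on the other strand, which every full CRE holds), the AP-1 element (TGANTCA), the TATA box (TATAAA) or a CArG box.
*Npas4* (chr19:4989922-4990221, − strand): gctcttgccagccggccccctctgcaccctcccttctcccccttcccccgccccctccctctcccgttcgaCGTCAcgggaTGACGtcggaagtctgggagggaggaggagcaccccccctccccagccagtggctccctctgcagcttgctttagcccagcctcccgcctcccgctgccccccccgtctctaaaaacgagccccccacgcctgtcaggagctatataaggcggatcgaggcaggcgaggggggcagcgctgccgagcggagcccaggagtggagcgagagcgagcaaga
*Ptgs2* (chr1:150099781-150100080, + strand): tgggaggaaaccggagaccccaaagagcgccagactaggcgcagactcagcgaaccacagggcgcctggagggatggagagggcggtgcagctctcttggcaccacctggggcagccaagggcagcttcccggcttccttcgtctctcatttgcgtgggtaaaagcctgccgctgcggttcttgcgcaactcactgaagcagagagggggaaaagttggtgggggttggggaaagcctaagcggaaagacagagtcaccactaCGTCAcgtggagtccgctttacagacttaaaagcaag
*Fos* (chr12:85473640-85473939, + strand): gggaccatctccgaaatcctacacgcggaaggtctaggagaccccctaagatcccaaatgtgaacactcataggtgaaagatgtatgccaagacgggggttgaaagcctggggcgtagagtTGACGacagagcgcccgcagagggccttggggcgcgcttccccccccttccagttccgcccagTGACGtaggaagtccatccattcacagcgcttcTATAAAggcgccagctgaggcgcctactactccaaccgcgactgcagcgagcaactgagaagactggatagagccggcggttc
*Btg2* (chr1:134079106-134079405, − strand): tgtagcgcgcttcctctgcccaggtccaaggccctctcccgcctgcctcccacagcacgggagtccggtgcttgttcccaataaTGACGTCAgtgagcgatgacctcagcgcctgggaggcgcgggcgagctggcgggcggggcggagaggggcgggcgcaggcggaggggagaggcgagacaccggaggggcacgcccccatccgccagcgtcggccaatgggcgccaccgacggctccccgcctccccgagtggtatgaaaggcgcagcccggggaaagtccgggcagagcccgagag
*Il6* (chr5:30012864-30013163, + strand): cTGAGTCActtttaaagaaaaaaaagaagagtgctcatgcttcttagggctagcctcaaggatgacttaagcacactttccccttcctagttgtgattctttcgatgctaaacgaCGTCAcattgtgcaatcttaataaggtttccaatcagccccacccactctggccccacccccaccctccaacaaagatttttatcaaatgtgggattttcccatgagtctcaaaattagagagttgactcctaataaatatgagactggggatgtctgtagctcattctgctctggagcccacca

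All 5 windows held a CRE half-site, in *Ptgs2* just after the start of the gene, and that of *Btg2* held a full CRE, 166 to 159 bases before the start. The TATA box of *Fos* lay 33 to 28 bases before its start, and the AP-1 match of *Il6* 249 to 243 bases before. Of the 22 IEGs, 17 had a promoter in the RefSeq table, and *Fosl1*, *Egr1*, *Egr3*, *Arc* and *Ier2* had none. The half-site was found in 14 of the 17, where a gene counted if any of its promoters held a match. These 17 genes had 28 promoters. Of all 32851 promoters, each counted singly, 20.8% held it. The count by gene and the share by promoter are thus unlike units, here and for the other elements. The full CRE was found in 1 (*Dusp1*; 1.79% of all promoters), the AP-1 element in 1 (*Bdnf*; 7.81%), the TATA box in 3 (*Fos*, *Junb* and *Nr4a2*; 13.6%) and the CArG box in 1 (*Egr2*; 1.63%). The half-site was searched after the full CRE had been found in 1 gene. These matches are of letters within 300 bases and do not show binding.

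The other members that edgeR's exact test called lower were a mixed group. *Il6* is described with the cytokines. *Hspa1a*, an inducible heat shock protein 70, was at 125.7 and 533.0 CPM in SE mice and at 38.1 and 22.02 CPM in SE + LEV mice (log2 difference −3.16, SE 0.89). Its near-identical copy *Hspa1b* was at 2.42 and 3.30 CPM against 2.33 and 3.61 CPM, so how reads were split between them is uncertain. *Oaz1*, an inhibitor of polyamine synthesis that overlaps *Mir1982*, was at 100.4 and 524.5 CPM against 27.2 and 22.7 CPM. Both genes were high mainly in SE 2 days replicate 2. The pseudogenes *Gm15580* (6.36 and 5.83 CPM against 0.34 and 0.00 CPM) and *Gm16335* (169.2 and 29.2 CPM against 6.40 and 1.64 CPM) completed the calls.

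The 2 genes that edgeR's exact test called higher were *Acot5* and the pseudogene *Gm13253*. *Acot5*, an acyl-CoA thioesterase of peroxisomes (chromosome 12 of mm9, 85410275 to 85416970), had no tag in either SE mouse or either pre-SE mouse and was at 1.26 and 0.94 CPM in SE + LEV mice. The lower of the treated mice was at least 6.56-fold higher than 3 tags would be in the SE mouse with the higher limit. *Gm13253* was at 21.4 and 12.8 CPM against 92.9 and 103.6 CPM, but its 2 pre-SE mice were at 206.0 and 14.7 CPM.

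Of the genes with the smallest unadjusted p in limma among those with non-overlapping groups, the lower ones not yet named were *Arl4d*, *Kbtbd5*, *Cdkn1a* and *Dok5*. *Cdkn1a*, the cell cycle inhibitor p21, was at 64.7 and 85.0 CPM in SE mice, 33.0 and 21.15 CPM in SE + LEV mice and 9.14 and 7.33 CPM in pre-SE mice, a log2 difference of −1.49 (SE 0.36). *Arl4d*, a small GTPase, was at 18.7 and 21.0 CPM against 6.45 and 8.99 CPM (−1.37, SE 0.32). *Dok5*, an adaptor of receptor tyrosine kinases, was at 45.4 and 71.0 CPM against 31.1 and 21.5 CPM (−1.13, SE 0.28). *Kbtbd5*, a kelch-domain gene, was at 12.2 and 9.84 CPM against 4.30 and 2.75 CPM. That the groups did not overlap was a condition of the choice of all these genes.

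On the higher side the same rule gave *Ccdc74a*, *Prr18*, *Sox3*, *Id4*, *Prkcq*, *Tmsb15l*, *Tmsb15b2* and 3 non-coding or unnamed genes (*RP23-118G3.2*, *Gm13778* and *4930412C18Rik*). *Id4*, an inhibitor of basic helix-loop-helix factors found in astrocytes and neural stem cells, was at 37.8 and 36.0 CPM in SE mice and at 59.9 and 148.0 CPM in SE + LEV mice, a log2 difference of 1.35 (SE 0.39). Its pre-SE levels were 117.8 and 85.5 CPM. *Prr18* was at 12.6 and 14.2 CPM against 24.2 and 25.96 CPM (0.90, SE 0.24) and *Ccdc74a* at 29.7 and 21.7 CPM against 43.0 and 52.7 CPM (0.91, SE 0.24), and the levels with LEV were near the pre-SE levels of 27.97 and 33.4 CPM and of 45.0 and 46.3 CPM. *Prkcq*, a protein kinase C, was at 4.11 and 5.87 CPM against 10.6 and 11.2 CPM (1.14, SE 0.34), and *Sox3*, a transcription factor of neural progenitors, at 1.02 and 1.10 CPM against 2.51 and 2.83 CPM. *Tmsb15l* and *Tmsb15b2* overlap each other on the same strand, so their tags may be shared. *Prr18* likewise overlaps *Sft2d1* on the same strand.

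**Figure D2:**
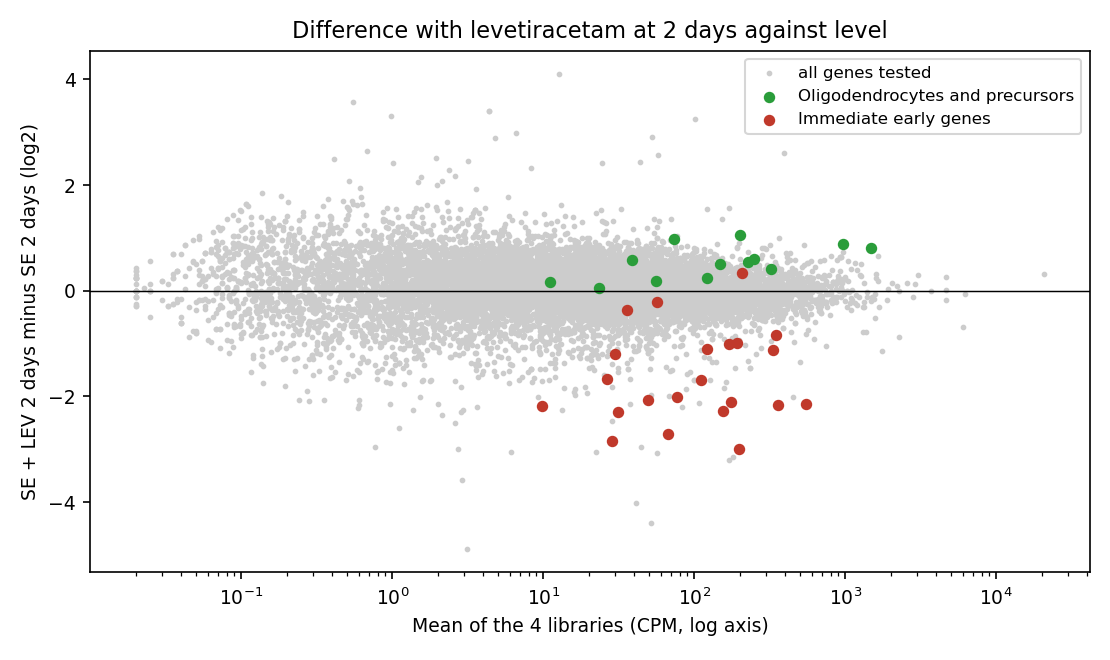
Log2 difference between SE + LEV 2 days and SE 2 days mice (vertical axis) against the mean CPM of the 4 mice (horizontal log axis, means under 0.02 drawn at 0.02), 1 point per gene tested. The 22 immediate early genes (red) lie mostly below 0, with a median of −1.85, and all 13 genes of oligodendrocytes and their precursors (green) lie above 0, with a median of 0.55.

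The treated mice were next examined one by one, over the 14308 genes with a mean of at least 1 CPM in the 4 mice. The median absolute log2 distance from the SE 2 days mean was 0.18 in replicate 1 and 0.35 in replicate 2. From the pre-SE mean it was 0.35 in replicate 1 and 0.30 in replicate 2. Replicate 1 was thus nearer to the SE 2 days mean and replicate 2 nearer to the pre-SE mean. At least 2-fold below both SE mice there were 43 genes in replicate 1 and 454 in replicate 2, and at least 2-fold above both there were 54 and 520. The treated mice differed from each other by 4-fold or more in 264 genes (1.85%), against 128 (0.89%) between the SE 2 days mice and 107 to 134 between the mice of the other 3 groups. When limma was refitted with 1 treated mouse, whose spread was then taken from the other groups, replicate 2 alone gave 775 genes lower and 955 higher at an unadjusted p under 0.05 with 0 called after adjustment. Replicate 1 alone gave 73 and 58, with 2 called lower (*Tagap1* and *Gm13453*).

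**Figure D3:**
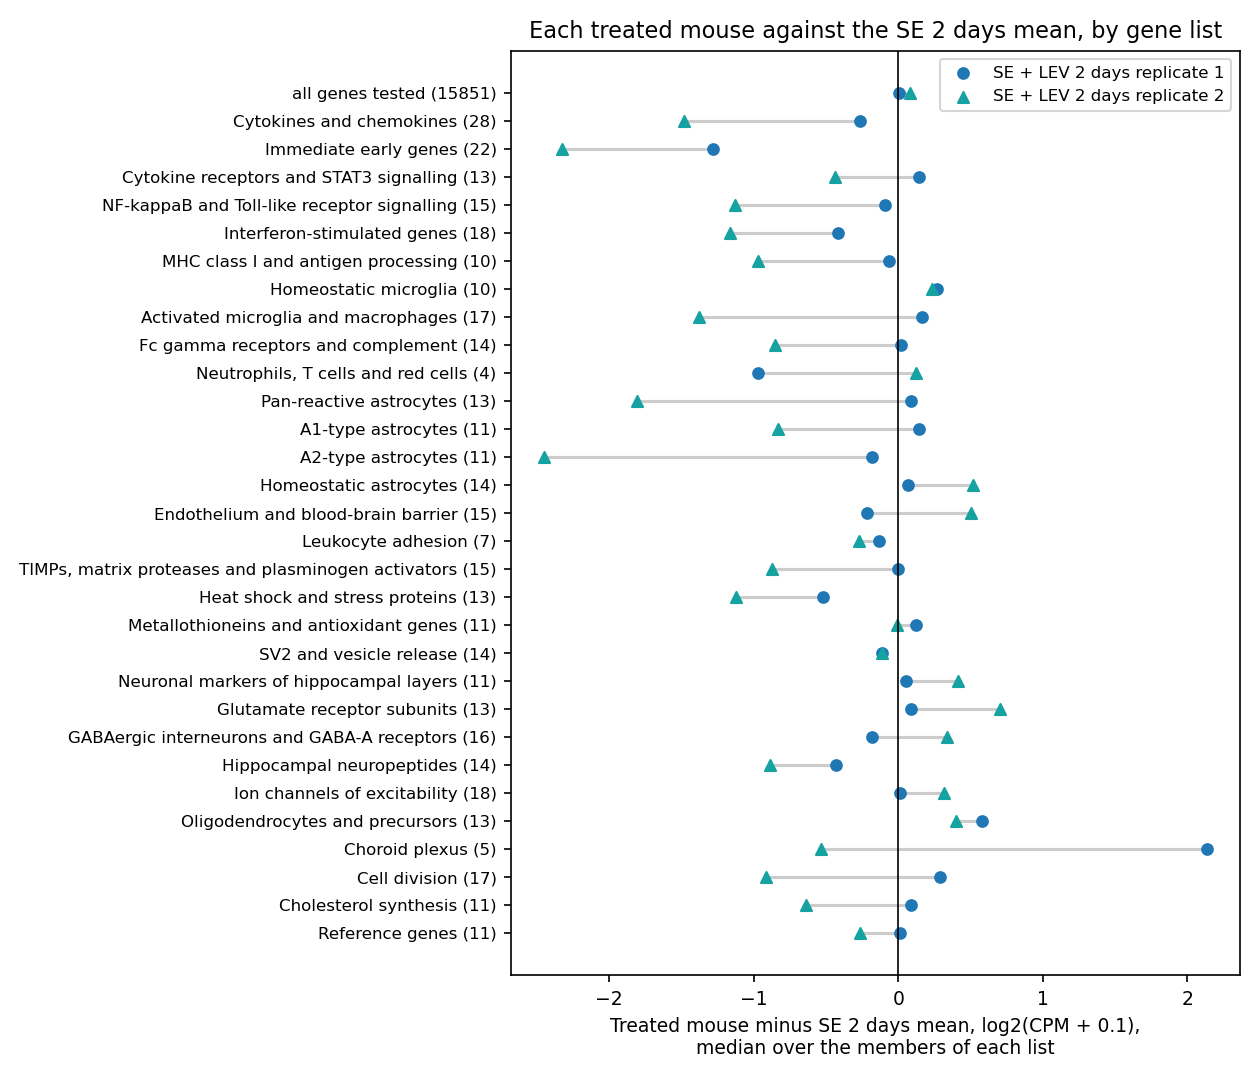
Median over the members of each gene list (number of entries tested in brackets) of log2(CPM + 0.1) in each SE + LEV 2 days mouse minus the mean of the SE 2 days mice. Immediate early genes are low in both mice (−1.28 and −2.32), while pan-reactive astrocyte genes are at 0.09 in replicate 1 and −1.80 in replicate 2.

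Some of the largest differences between the treated mice concerned single genes that also varied among the mice of other groups. *Ttr*, which encodes transthyretin of the choroid plexus, was at 1475 and 18.9 CPM in SE + LEV replicates 1 and 2 and at 5.83 and 1668 CPM in the pre-SE mice. *Rps26-ps1* was at 8.37 and 185.8 CPM in the treated mice and at 4.79 and 234.4 CPM in the SE mice, and *Nudt10* at 0.18 and 10.4 CPM against 0.25 and 14.2 CPM. *Tagap1* was at 0.07 CPM in replicate 1, against 59.9 CPM in replicate 2 and 53.1 and 50.4 CPM in the SE mice. *Zfp119a* (8.87 and 0.00 CPM), *Bex4* (1.21 and 16.6 CPM), *Gm10243* (399.4 and 0.16 CPM), *Gm3452* (31.3 and 0.29 CPM), *Gm10800* (42.8 and 1.11 CPM) and *Gm13453* (1.87 and 53.3 CPM) were the others of the 5 genes in each direction with the largest difference between the treated mice. These genes were chosen for this difference, which has no test.

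Cytokines and chemokines, the secreted signals of inflammation, gave 28 genes tested. Of these, 24 had a lower estimate with LEV, 9 at an unadjusted p under 0.05 (32.1%, against 1.39% of all genes), and 0 were called by limma, DESeq2 or edgeR's quasi-likelihood test. Both treated mice were below both SE mice in 10 (35.7%) and above both in 2 (7.14%, against 15.2% of all genes). The median log2 difference was −0.71, with −0.27 in replicate 1 and −1.48 in replicate 2. Without SE 2 days replicate 1 the median was −0.49, and without SE 2 days replicate 2 it was −1.19.

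**Figure D4:**
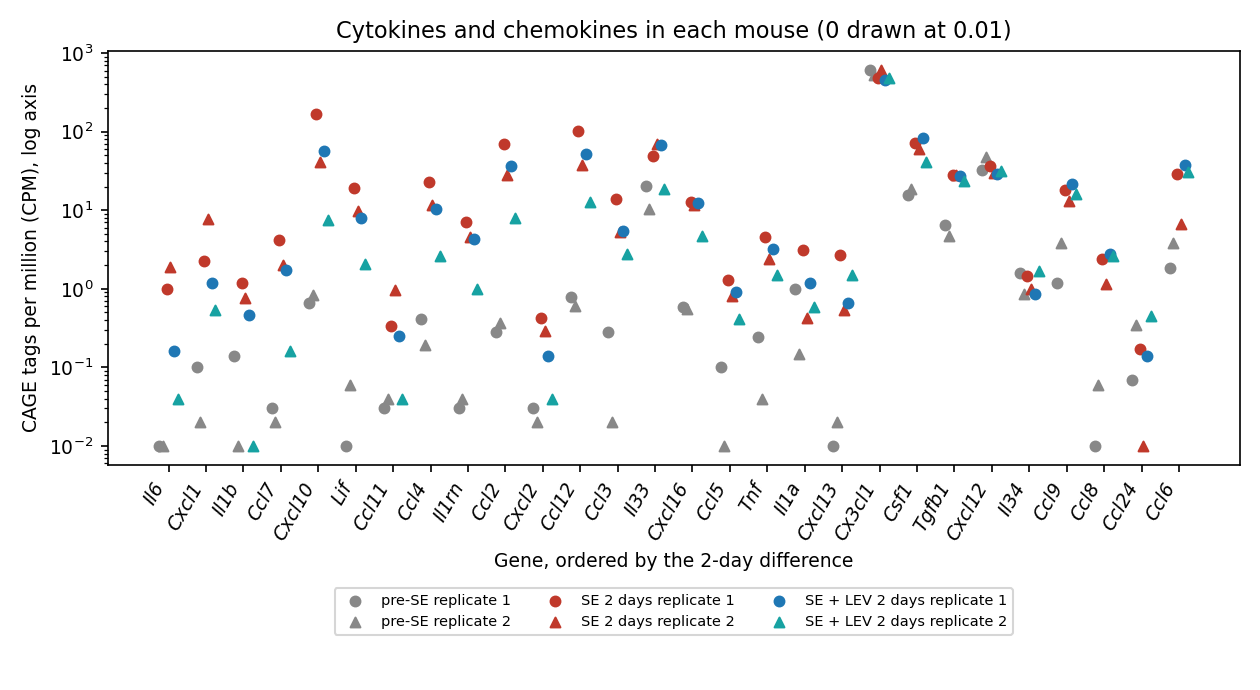
CPM on a log axis of the 28 cytokines and chemokines in each of 6 mice (grey, pre-SE; red, SE 2 days; blue and teal, SE + LEV 2 days replicates 1 and 2), ordered by the log2 difference with LEV, with values of 0 drawn at 0.01. In 10 genes both SE + LEV mice lie below both SE mice, and in *Ccl8* and *Ccl6*, at the right, above both.

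*Il6*, the pleiotropic interleukin of acute inflammation, was at 0.98 and 1.91 CPM in SE mice and at 0.16 and 0.04 CPM in SE + LEV mice, a log2 difference of −2.95 (SE 0.56). The value of replicate 2 was 1 tag and that of replicate 1 was 7 tags. It was the 1 member of the list that edgeR's exact test called. *Cxcl1*, which attracts neutrophils, was at 2.25 and 7.83 CPM against 1.19 and 0.53 CPM (−2.26, SE 0.68). *Il1b*, interleukin-1 beta, was at 1.19 and 0.76 CPM against 0.46 and 0.00 CPM (−2.15, SE 0.89). In these 3 genes both treated mice were below both SE mice.

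*Ccl7*, a chemokine of monocytes, was at 4.20 and 2.01 CPM in SE mice and at 1.71 and 0.16 CPM in SE + LEV mice (−2.13, SE 0.90), and *Ccl4* at 23.1 and 11.5 CPM against 10.3 and 2.63 CPM (−1.63, SE 0.63). *Ccl2* was at 70.3 and 28.1 CPM against 37.1 and 8.01 CPM (−1.36, SE 0.68), and *Cxcl10*, an interferon-induced chemokine, at 166.0 and 41.2 CPM against 56.0 and 7.52 CPM (−2.001, SE 0.893). In *Ccl2* and *Cxcl10* replicate 1 was between the SE mice and replicate 2 below both. *Lif*, a cytokine of the interleukin-6 family that acts on astrocytes, was at 19.2 and 9.79 CPM against 8.05 and 2.09 CPM (−1.71, SE 0.72). *Ccl6* went the other way, at 29.3 and 6.73 CPM without LEV and 37.8 and 30.9 CPM with it (1.27, SE 0.60), as did *Ccl8* at 2.42 and 1.15 CPM against 2.77 and 2.59 CPM.

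Downstream of such signals, 13 of 15 genes of NF-kappaB and Toll-like receptor signalling had lower estimates, 1 of them at an unadjusted p under 0.05 (*Nfkbiz*; 6.67%, against 1.39% of all genes). The median was −0.56, with −0.09 in replicate 1 and −1.13 in replicate 2, and replicate 2 was below both SE mice in 12 of the 15, against 32.2% of all genes. *Nfkbiz*, a nuclear IkappaB protein, was at 24.1 and 33.7 CPM against 17.5 and 8.46 CPM (−1.22, SE 0.39). *Cd14*, a receptor for lipopolysaccharide, was at 29.6 and 27.4 CPM against 18.8 and 6.90 CPM (−1.31, SE 0.63). In both genes the treated mice were the lower ones. The cytokine receptors and STAT3 pathway genes had a median of −0.15, with 0 of 13 at an unadjusted p under 0.05. *Socs3*, the feedback inhibitor of STAT3, was at 65.9 and 51.4 CPM against 58.3 and 16.8 CPM.

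Interferon-stimulated genes had lower estimates in 17 of 18, with 1 at an unadjusted p under 0.05 (*Isg15*; 5.56%, against 1.39% of all genes), and a median of −0.87. This median turned on a single SE 2 days mouse. SE 2 days replicate 1 was above replicate 2 by a median of 1.21 on the log2 scale. Without SE 2 days replicate 1 the median of the list was −0.05, whereas without SE 2 days replicate 2 it was −1.51. *Isg15*, a ubiquitin-like modifier, was at 275.8 and 88.7 CPM in SE mice and at 84.0 and 49.99 CPM in SE + LEV mice (−1.27, SE 0.48). Among 10 genes of MHC class I and antigen processing, all with lower estimates, replicate 2 was below both SE mice in 10 (32.2% of all genes) and replicate 1 in 3 (28.4%). *Tap1*, a peptide transporter, was at 4.88 and 2.58 CPM against 1.69 and 1.31 CPM (−1.20, SE 0.44), and *B2m*, the light chain of MHC class I, was at 334.4 and 286.0 CPM against 347.8 and 51.7 CPM. *H2-D1* was at 196.7 and 276.4 CPM against 312.4 and 102.4 CPM, with the treated mice on opposite sides of the SE mice.

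Genes of activated microglia and macrophages separated the treated mice. Of 17 genes, 2 were lower at an unadjusted p under 0.05 (*Cd72* and *Cd44*; 11.8%, against 1.39% of all genes), and the medians were 0.17 in replicate 1 and −1.38 in replicate 2. Replicate 2 was below both SE mice in 13, against 32.2% of all genes, and replicate 1 in 2, against 28.4%. *Spp1* (osteopontin) was at 76.0 and 628.2 CPM in SE mice, 370.0 CPM in SE + LEV replicate 1 and 28.4 CPM in replicate 2. *Msr1*, a scavenger receptor, was at 37.8 and 53.2 CPM in SE mice, 56.4 CPM in replicate 1 and 3.45 CPM in replicate 2, with 0.03 and 0.19 CPM in pre-SE mice. *Lgals3* (galectin-3) was at 60.3 and 71.4 CPM, 76.7 CPM and 13.6 CPM in the same order. In all 3 genes replicate 2 was the lowest of the 4 mice and still above the pre-SE mice.

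*Cd72*, an inhibitory receptor, was lower in both treated mice (27.2 and 20.4 CPM against 15.0 and 2.34 CPM; log2 difference −1.96, SE 0.72). *Cd44*, a hyaluronan receptor of reactive glia, was at 85.3 and 159.5 CPM against 96.1 and 15.8 CPM (−1.58, SE 0.66). Complement and Fc gamma receptor genes had 0 of 14 at an unadjusted p under 0.05, with medians of 0.02 in replicate 1 and −0.85 in replicate 2. *C1qa* was at 276.1 and 407.5 CPM against 334.8 and 152.8 CPM.

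Homeostatic microglial genes did not follow this order. Their median was 0.25, with 0.27 in replicate 1 and 0.24 in replicate 2, none of the 10 passed an unadjusted p under 0.05, and both treated mice were above both SE mice in 4 (40.0%, against 15.2% of all genes). *Tmem119* was at 36.4 and 30.8 CPM against 43.5 and 23.3 CPM. *P2ry12*, the ADP receptor of resting microglia, was at 18.1 and 16.9 CPM in SE mice, 20.4 and 52.7 CPM in SE + LEV mice and 41.4 and 26.9 CPM in pre-SE mice (log2 difference 0.90, SE 0.42). The summed level of the macrophage markers *Msr1*, *Ms4a7* and *Mrc1* was 42.9 and 59.6 CPM in SE mice, 66.2 CPM in replicate 1 and 7.14 CPM in replicate 2. *Msr1*, given above with the activated microglia, made up most of the sum in the SE mice and replicate 1. *Ms4a7* had 32 tags in replicate 2, against 62 and 108 in the SE mice. *Mrc1* was not lower there, with 58 tags against 59 and 24. The part of macrophages in the lower values of replicate 2 was not tested.

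**Figure D5:**
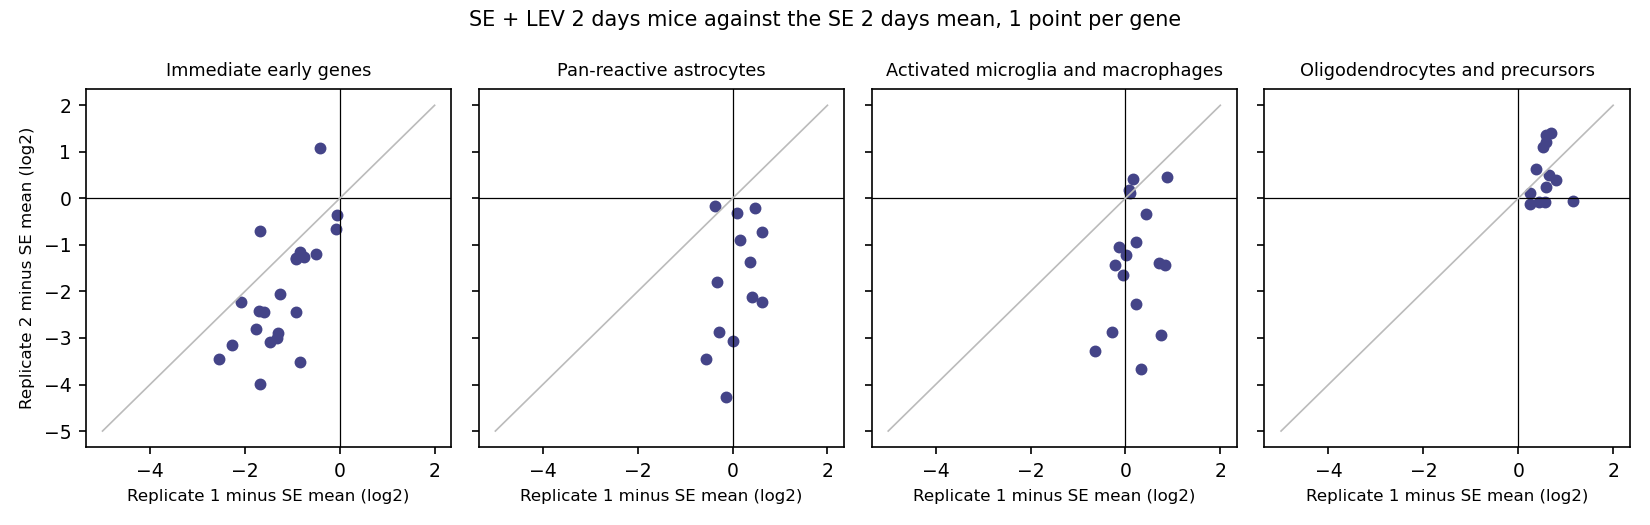
Log2 distance from the SE 2 days mean of SE + LEV 2 days replicate 1 (horizontal) and replicate 2 (vertical), 1 point per gene, for 4 lists; the grey line marks equal distances. Immediate early genes lie mostly to the left of 0 and below 0, pan-reactive astrocyte and activated microglial genes near 0 for replicate 1 and below 0 for replicate 2, and oligodendrocyte genes to the right of 0.

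Reactive astrocytes can be described by genes shared by reactive states (pan-reactive) and by genes called A1-type and A2-type after neuroinflammation and ischaemia. Pan-reactive genes had lower estimates in 12 of 13, with 2 (*Cd44* and *Cxcl10*) at an unadjusted p under 0.05 (15.4%, against 1.39% of all genes), and medians of 0.09 in replicate 1 and −1.80 in replicate 2. Neither of the 2 is particular to this list: *Cd44* was counted with activated microglia and macrophages, and *Cxcl10* is described with the cytokines. *Gfap*, the intermediate filament of astrocytes, was at 2282 and 3642 CPM in SE mice and at 3071 and 2312 CPM in SE + LEV mice, so both treated mice were within the range of the SE mice. *Timp1*, an inhibitor of metalloproteinases, was at 59.6 and 232.0 CPM in SE mice, 181.4 CPM in replicate 1 and 25.0 CPM in replicate 2, with 0.17 and 0.19 CPM in pre-SE mice. *Hspb1*, a small heat shock protein, was at 93.7 and 131.0 CPM, 101.0 CPM and 5.63 CPM in the same order (log2 difference −2.20, SE 1.10).

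A2-type genes had lower estimates in 10 of 11, with 3 at an unadjusted p under 0.05 (*Ptgs2*, *Ptx3* and *Tm4sf1*; 27.3%, against 1.39% of all genes) and medians of −0.18 in replicate 1 and −2.45 in replicate 2. The treated mice were both below the SE mice in 5 (45.5%, against 12.2%). *Ptgs2* is also on the IEG list. *Ptx3*, a secreted pentraxin, was at 19.2 and 25.2 CPM against 18.0 and 1.81 CPM (−1.91, SE 0.82), and *Tm4sf1*, a membrane tetraspanin-like protein, at 97.9 and 81.6 CPM against 66.0 and 16.3 CPM (−1.44, SE 0.54). *S100a10*, a calcium-binding protein family member, was at 178.3 and 384.4 CPM against 230.6 and 70.6 CPM (−1.04, SE 0.52). The median of the 11 genes was −1.27 with both treated mice, −0.18 with SE + LEV replicate 2 left out and −2.45 with replicate 1 left out.

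A1-type genes had 0 of 11 at an unadjusted p under 0.05 and a median of −0.38, with 0.14 in replicate 1 and −0.83 in replicate 2. *Ggta1* was at 3.69 and 6.11 CPM against 7.57 and 2.63 CPM, and *Gbp2*, an interferon-induced GTPase, at 11.4 and 4.54 CPM against 6.06 and 4.93 CPM. *Amigo2*, an adhesion molecule, was at 22.01 and 7.74 CPM in SE mice and 16.5 and 29.4 CPM in SE + LEV mice, with 31.9 and 27.8 CPM in pre-SE mice. The A1 and A2 medians were not tested against each other.

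Genes of homeostatic astrocytes had higher estimates in 11 of 14, with a median of 0.32 (0.07 in replicate 1 and 0.52 in replicate 2). The other 3 had lower estimates, down to −0.44, and the genes given here are all among the higher ones. *Slc1a3*, the glutamate transporter GLAST, was at 241.8 and 197.8 CPM in SE mice, 315.5 and 356.7 CPM in SE + LEV mice and 353.3 and 370.5 CPM in pre-SE mice. Both treated mice were above both SE mice, and its log2 difference of 0.62 (SE 0.25) was the 1 in the list at an unadjusted p under 0.05. *Ndrg2* was at 167.5 and 152.6 CPM against 180.1 and 262.3 CPM (0.44, SE 0.24), *Slc1a2*, the transporter GLT-1, at 786.2 and 808.7 CPM against 801.1 and 975.9 CPM (0.15, SE 0.25), and *P2ry1* at 1.78 and 2.77 CPM against 2.65 and 3.16 CPM.

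The 15 extracellular proteolysis genes had medians of 0.00 in replicate 1 and −0.88 in replicate 2. *Adamts1*, a metalloprotease, was at 53.5 and 85.7 CPM in SE mice and at 47.8 and 20.4 CPM in SE + LEV mice (−1.11, SE 0.39). Its groups did not overlap, and replicate 1 was nearer to the SE mice. Endothelial and blood-brain barrier genes had 0 of 15 at an unadjusted p under 0.05 and a median of 0.14, and *Cdh5* (VE-cadherin) was at 7.04 and 7.74 CPM against 6.06 and 6.45 CPM. Genes of cell division had 0 of 17 at an unadjusted p under 0.05. Replicate 1 was above both SE mice in 11 of these 17, against 28.9% of all genes, and replicate 2 below both in 16, against 32.2%, with medians of 0.29 and −0.91. *Birc5* (survivin) was at 20.2 and 23.5 CPM in SE mice, 30.4 CPM in replicate 1 and 10.3 CPM in replicate 2.

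Heat shock and stress genes resembled the IEGs in that both treated mice were lower: both were below both SE mice in 9 of 13 (69.2%, against 12.2% of all genes), 5 were lower at an unadjusted p under 0.05 (38.5%, against 1.39%), and the medians were −0.52 and −1.12 in replicates 1 and 2. *Gadd45b*, a growth arrest gene that neurons also induce with activity, was at 18.4 and 41.5 CPM against 13.8 and 14.5 CPM (−0.96, SE 0.36). *Hsp90aa1*, an abundant chaperone, was at 305.2 and 228.9 CPM against 255.6 and 437.0 CPM. The median of the list was −0.83 with all mice, −0.38 without SE 2 days replicate 2 and −0.52 without SE + LEV 2 days replicate 2.

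Hippocampal neuropeptides and secreted synaptic proteins had 12 of 14 lower estimates, 3 at an unadjusted p under 0.05 (21.4%, against 1.39% of all genes). Their median was −0.85 (−0.43 in replicate 1 and −0.89 in replicate 2). The median was −0.23 without SE 2 days replicate 2 and −1.35 without SE 2 days replicate 1. Without SE + LEV 2 days replicate 1 it was −0.89, and without SE + LEV 2 days replicate 2 it was −0.43. *Nptx2*, a pentraxin that clusters AMPA receptors, was at 190.9 and 1318 CPM in SE mice, 244.4 and 63.3 CPM in SE + LEV mice and 34.5 and 34.5 CPM in pre-SE mice (−2.01, SE 0.82). *Npy*, neuropeptide Y, was at 179.3 and 710.7 CPM against 294.0 and 115.4 CPM, and *Gal*, galanin, at 17 and 334.2 CPM against 105.2 and 9.45 CPM. SE replicate 2 was the highest mouse for these 3 genes, and SE + LEV replicate 1 lay between the SE mice. *Chga*, chromogranin A, was lower in both treated mice (118.1 and 121.7 CPM against 74.7 and 36.6 CPM; −1.20, SE 0.42), as was *Pdyn*, prodynorphin (3.86 and 7.79 CPM against 1.81 and 3.57 CPM; −1.08, SE 0.44).

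In genes of the LEV target family and of vesicle release, log2 differences ran from −1.26 (*Sv2c*) to 0.33. *Sv2a* was at 137.7 and 123.8 CPM in SE mice and at 112.6 and 120.4 CPM in SE + LEV mice (log2 difference −0.17, SE 0.21), and *Sv2b* at 615.6 and 529.4 CPM against 487.6 and 397.6 CPM. Both treated mice were below both SE mice in 7 of the 14 genes (50%, against 12.2% of all genes), with a median of −0.14. *Sv2c* was the 1 member lower at an unadjusted p under 0.05 (1.39% of all genes): it was at 89.6 and 104.0 CPM in SE mice, 89.4 CPM in replicate 1 and 18.0 CPM in replicate 2, with 16.6 and 20.1 CPM in pre-SE mice (−1.26, SE 0.56).

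Among the genes of neuronal receptors and hippocampal layers, few reached an unadjusted p under 0.05. Glutamate receptor subunits had higher estimates in 11 of 13, with a median of 0.44 that was −0.004 without SE 2 days replicate 2. *Grm3*, a metabotropic receptor of neurons and astrocytes, was at 36.2 and 37.5 CPM in SE mice and at 55.0 and 60.8 CPM in SE + LEV mice (0.65, SE 0.25), while *Grin1*, the obligatory NMDA receptor subunit, was at 577.0 and 421.8 CPM against 509.7 and 299.3 CPM (−0.34, SE 0.33). The 11 layer markers had a median of 0.05, with 1 lower and 1 higher at an unadjusted p under 0.05. *Fibcd1*, a marker of CA1 pyramidal cells, was at 18.2 and 7.16 CPM in SE mice, 31.0 and 32.9 CPM in SE + LEV mice and 63.2 and 34.5 CPM in pre-SE mice (1.47, SE 0.50). *Wfs1*, also expressed in CA1 pyramidal cells, went the other way, at 165.2 and 303.6 CPM against 159.3 and 130.5 CPM (−0.63, SE 0.28). GABAergic genes had 0 of 16 at an unadjusted p under 0.05 and a median of 0.03, with *Gad1*, the main synthetic enzyme of GABA, at 178.0 and 288.0 CPM against 169.8 and 159.4 CPM.

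All 13 genes of oligodendrocytes and their precursors had higher estimates with LEV, 2 at an unadjusted p under 0.05, against 1.31% of all genes, with 0 called by limma, DESeq2 or edgeR's quasi-likelihood and exact tests. Both treated mice were above both SE mice in 5 (38.5%, against 15.2% of all genes), and the medians were 0.58 in replicate 1 and 0.40 in replicate 2. *Cnp*, a myelin enzyme, was at 109.2 and 149.7 CPM in SE mice, 207.8 and 338.1 CPM in SE + LEV mice and 313.9 and 283.9 CPM in pre-SE mice (log2 difference 1.05, SE 0.33). *Mog*, a surface protein of myelin, was at 34.8 and 64.3 CPM against 71.3 and 121.7 CPM (0.98, SE 0.43). *Mbp*, a main protein of myelin, was at 898.0 and 1256 CPM against 1517 and 2266 CPM, so that it was also higher in both treated mice. *Pdgfra* of precursors was at 21.3 and 24.7 CPM against 27.0 and 21.0 CPM. Without SE 2 days replicate 1, the mouse with the lower values, the median of the list was 0.11, and without replicate 2 it was 0.997.

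Genes often used as references were not level in every mouse. *Actb*, beta-actin, was at 7319 and 7032 CPM in SE mice and at 7238 and 2712 CPM in SE + LEV mice. The low value was in replicate 2, so ratios to *Actb* in that mouse would come out higher than CPM. Over the 11 reference genes the median log2 difference was −0.11, with 0 at an unadjusted p under 0.05.

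Beside the 2-day values, the same lists were read in the SE + LEV 6 h mice, which had received LEV 1 time, against SE 6 h mice, 4 other animals. The median of the IEGs was −1.79 at 6 h, with 18 of 22 lower at an unadjusted p under 0.05 (3.42% of all genes at that time, with 1.16% higher), against −1.85 and 16 at 2 days. That of the cytokines and chemokines was −0.67 with 9 of 28, against −0.71 and 9. The difference between the LEV effects at the 2 times was tested in the same limma fit, which called 0 genes. At an unadjusted p under 0.05 the effect was higher at 2 days in 251 genes (1.58%) and lower in 126 (0.795%), and 0 of the 22 IEGs and 3 of the 28 cytokines and chemokines, the latter all higher, were among them.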

How the data were processed

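CAGE libraries of 10 hippocampi were analysed, with 2 mice in each of 5 groups taken from the labels. The authors mapped tags to mm9 (BWA 0.7.17, HISAT2 2.0.5), ran the RECLU pipeline to form clusters (those below 0.1 CPM were dropped) and deposited a CPM value for each gene and mouse. How clusters were summed to genes, and whether by strand, is not given in the sources used here. The p-values measure only the spread between these mice.

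Genes reaching 0.1 CPM in 2 or more libraries entered the test on log2(CPM + 0.1) with limma 3.58.1 (all 10 libraries, 5 group means, mean-variance trend, two-sided, Benjamini-Hochberg adjustment, calls at 0.05). With 2 mice against 2 the smallest exact permutation p is 0.333, so limma's calls rest on a spread shared across genes and groups. Tag counts were recovered as whole multiples of 1 tag (100% of values within 0.005 CPM) and tested with edgeR 4.0.16 and DESeq2 1.42.0. In the deeper libraries the CPM of 1 tag is close to the rounding of the file. Gene identifiers were matched to GENCODE M1 (15900 of 15900), and identical entries of 1 symbol were counted once in lists. Scripts were tested on simulated data.

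The mice, the 30 gene lists and the rules were chosen with earlier results of these data known. Genes named are those with the smallest limma p among non-overlapping genes of at least 1 CPM (up to 10 per direction), those called by any tool, the extremes and non-overlapping members of each list, genes of the study's text, and the 5 per direction furthest apart between the treated mice at a mean of at least 5 CPM. *Homer1*, *Cd44*, *Spp1*, *C1qa*, *Timp1*, *Npy* and *Gal* are list members outside this rule and were chosen after their values were seen. Replicate numbers do not mark shared animals. Some list members are not reported here.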

Additional observations from a re-analysis of the deposited data

How the results depend on the processing

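In limma, the counts of 0 genes lower and 0 higher were also obtained with other pseudocounts, filters, rescaling, a fit of only these groups and edgeR's quasi-likelihood test. Of the alternatives, edgeR's exact test gave 10 lower and 2 higher, DESeq2 4 lower, no mean-variance trend 1 higher, and leaving out each mouse in turn 0 to 2 lower and 0 higher. For the difference of the LEV effects between 2 days and 6 h, where limma called 0, pseudocounts of 0.5 and 1 gave 1 and 2 genes, no trend 2 and DESeq2 3. The cause was not tested. With the replicate number as a block, where same-numbered mice at 2 days had a correlation of −0.175, 0 genes were called lower and 0 higher (235 and 212 at an unadjusted p under 0.05). With the numbers crossed, a pairing added after this was seen, 0 and 0 were called (284 and 307). The numbers do not tie the mice together, so neither fit is a paired analysis. The counts at an unadjusted p under 0.05 ranged from 73 to 775 lower and 58 to 955 higher when each mouse was left out. Direction was reversed by leaving out 1 mouse for *Gfap* (log2 difference −0.45 to 0.22), *H2-D1* (−1.19 to 0.42), *Gbp2* (−1.05 to 0.26), *Tmem119* (−0.52 to 0.38), *Grin1* (−0.72 to 0.047) and *Ggta1* (−0.83 to 0.66), and for *Ggta1* also by edgeR's quasi-likelihood (0.032) and exact (0.028) tests and DESeq2 (0.031). The median of all genes tested was 0.04 and moved by under 0.1 with rescaling. With 2 mice a side and 1 treated mouse apart from the other, gene-level differences of the size seen here were mostly not separable from the spread between mice.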
